A study of Mus musculus with 8 samples.

Results

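The 10 genes that move iron out of cells, into cells and into storage were followed across 4 groups of mouse lung adenocarcinoma cell lines. They are Slc40a1, Heph, Tfrc, Trf, Slc11a2, Fth1, Ftl1, Hmox1, Aco1 and Ireb2, which make 10 of the 23224 genes in the deposited table, and each was found by its symbol. The set was chosen by the level of Slc40a1, which was much higher in cells carrying an shRNA against Nkx2-1 alone than in cells with a control shRNA. The values of that contrast are therefore given below as a description, without a test.

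The study asks, by its title, if metastasis of lung adenocarcinoma is held back by Nkx2-1 jointly with Foxa2 and Cdx2. These are transcription factors: Nkx2-1 marks lung and thyroid, Foxa2 acts in organs that derive from endoderm, and Cdx2 directs intestinal identity. RNA was sequenced from 8 libraries, 2 in each of 4 groups. All of them lack Trp53 (Trp53-/- in the labels) and were grown in DMEM with 10% serum. The shControl, shNkx2-1 and triple knockdown groups are Tnonmet cells, a line from a primary lung tumour that had not metastasised. They carry an shRNA against luciferase, an shRNA against Nkx2-1, or shRNAs against Nkx2-1, Foxa2 and Cdx2. The Tmet group comes from a primary lung tumour that had metastasised, and its labels name no shRNA. Tmet thus differs from the other groups in its tumour of origin, its metastatic state and the absence of an shRNA, and these cannot be told apart. Nothing says that duplicates came from separate cultures, so the p-values reflect only how duplicates vary, and that variation may be technical.

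Levels are in CPM, the estimated read counts of a gene scaled to a common library size. Between 14496995 and 21044835 counts were assigned per library, and 3 counts, the floor used for genes at 0, equal 0.151 to 0.2 CPM. Tmet duplicates differed more from each other than other duplicates did, with a correlation of log2 CPM of 0.977 against 0.993 to 0.995. Nkx2-1 was at 76.4 and 68 CPM in shControl, 37.7 and 44.8 with the Nkx2-1 shRNA alone, 38.1 and 34 in triple knockdown cells, and 0.219 and 0.353 in Tmet. Foxa2 was at 56.8 and 55.1, 49.2 and 41.6, 34.1 and 28.2, and 1.2 and 1.36 CPM in the same order, and Cdx2 at 98.6 and 111, 175 and 186, 9.41 and 6.8, and 0.383 and 0.353. Each targeted gene was thus lower in the cells named for its shRNA, with the deepest loss for Cdx2, while Cdx2 was higher in shNkx2-1 than in shControl. Of 6 epithelial markers, Cdh1, the adhesion protein E-cadherin, ran from 682 to 1005 CPM in Tnonmet cells and was at 3.17 and 3.33 in Tmet, and Krt8, Krt18 and Krt19 were abundant, but Epcam stayed at or under 0.676 CPM and Cldn7 at or under 0.0667 in all 8 libraries. Of 7 alveolar type 2 markers, Sftpa1, Sftpd and Lamp3 were at 0 throughout, and Abca3 alone was above 1 CPM.

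Cells take up iron mostly as transferrin, the plasma iron carrier, through the transferrin receptor, and move it from endosomes to the cytosol through the transporter DMT1, the product of Slc11a2. Iron that is not used is stored in ferritin, a shell of heavy and light chains, and leaves through ferroportin, the product of Slc40a1 and the only known cellular iron exporter in mammals. The iron regulatory proteins, made by Aco1 and Ireb2, bind hairpins called iron-responsive elements in messenger RNAs when iron is scarce: bound upstream of the coding sequence they block translation, and bound downstream they protect the transcript of the transferrin receptor from decay. Transcript levels therefore report only part of this control, since ferritin chains are set largely at translation.

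Hairpins that match the pattern of an iron-responsive element given below are shown for both ferritin chains and the transferrin receptor. They were read from GENCODE M21 transcripts on GRCm38. Only these genes were listed, so nothing is said here of hairpins in the other members, Slc40a1 among them. Capitals mark the 6-base loop, and the C that precedes the 5 paired bases on its left is the bulge. The Fth1 element lies in the 5′ UTR at chr19:9982732-9982760 on the plus strand and the Ftl1 element in the 5′ UTR at chr7:45459779-45459807 on the minus strand. The 4 Tfrc elements that matched lie in its 3′ UTR on the plus strand, from chr16:32631219-32631247 to chr16:32631710-32631738. Elements that depart from the pattern would be missed, so this is not a full count.
Fth1: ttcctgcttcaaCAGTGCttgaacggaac
Ftl1: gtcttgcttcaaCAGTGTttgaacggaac
Tfrc element 1: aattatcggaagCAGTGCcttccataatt
Tfrc element 2: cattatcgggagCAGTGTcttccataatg
Tfrc element 3: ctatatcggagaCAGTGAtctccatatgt
Tfrc element 4: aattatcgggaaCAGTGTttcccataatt
The search took a C, 5 bases, CAGTG with a sixth base other than G, and 5 bases that pair with the first 5, on the transcript's own strand. It matched the 5′ UTR of 17 of 20287 genes (0.0838%) and the 3′ UTR of 91 of 20883 genes (0.436%). Both ferritin chains share the same stem around the loop, whereas the Tfrc elements differ from each other in the stem. A match says that the letters are present, not that a protein binds there.

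Slc40a1 (ferroportin), on which the set was chosen, was at 8.6 and 6.3 CPM in shControl, 65.1 and 51.2 with the Nkx2-1 shRNA alone, 11.9 and 9.94 in triple knockdown cells, and 1.26 and 0.353 in Tmet. No 2 groups overlapped, and the order from high to low was shNkx2-1, triple knockdown, shControl, Tmet. The mean of shNkx2-1 was 7.81 times that of shControl (log2 difference 2.97 ± 0.34, SE, n = 2 in each group), which is the value that chose the set. Adding the shRNAs against Foxa2 and Cdx2 went with a mean 5.33 times lower than with the Nkx2-1 shRNA alone (log2 difference -2.41 ± 0.33), close to the level of shControl, from which the triple knockdown differed by 0.56 ± 0.33 on the log2 scale. These 2 values also rest on the gene's selection and carry no test.

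Tmet cells held the least ferroportin transcript, at 23 and 7 counts. Slc40a1 fell by 3.77 on the log2 scale from the triple knockdown to Tmet (SE 0.42, adjusted p = 0.000259, edgeR quasi-likelihood test with Benjamini-Hochberg adjustment over 13318 genes), a comparison its selection did not use. The mean was 13.5 times lower. The size depends on the Tmet library taken: the log2 difference was -4.93 without the first and -3.11 without the second, and the call held in 14 of 14 alternatives with an adjusted p of at most 0.0073. Against shControl the Tmet mean was 9.25 times lower and against shNkx2-1 72.3 times lower, both without a test. In bulk RNA, fewer cells with a transcript and less of it per cell cannot be told apart.

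Heph makes hephaestin, a membrane copper oxidase that converts exported iron to the form that transferrin binds. It was scarce in every group, with 20 and 16 counts (1.33 and 0.826 CPM) in shControl, 24 and 21 (1.46 and 1.18 CPM) with the Nkx2-1 shRNA alone, 0 and 0 in triple knockdown cells, and 3 and 3 (0.164 and 0.151 CPM) in Tmet. Heph passed the filter on low counts through shControl and shNkx2-1, so its tests against these groups are not independent of that filter. In the triple knockdown it was at least 5.79-fold lower than in shControl (adjusted p = 0.00281) and at least 7.08-fold lower than in shNkx2-1 (adjusted p = 0.0026), with the floor of 3 counts per library in place of 0. In Tmet the ratio to shControl was 0.15, with a 95% exact interval of 0.0517 to 0.36 (adjusted p = 0.00476), and the ratio to shNkx2-1 was 0.12, from 0.0417 to 0.281 (adjusted p = 0.00268). These 4 edgeR calls held in all alternatives run, and intervals and floors cover counting error only. Tmet and the triple knockdown are both at or under the floor, so no fold is given. The edgeR test called Heph higher in Tmet (adjusted p = 0.0306), and the call was lost with DESeq2 and without either library of shNkx2-1, the triple knockdown or Tmet (highest adjusted p = 0.107).

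**Figure D1:**
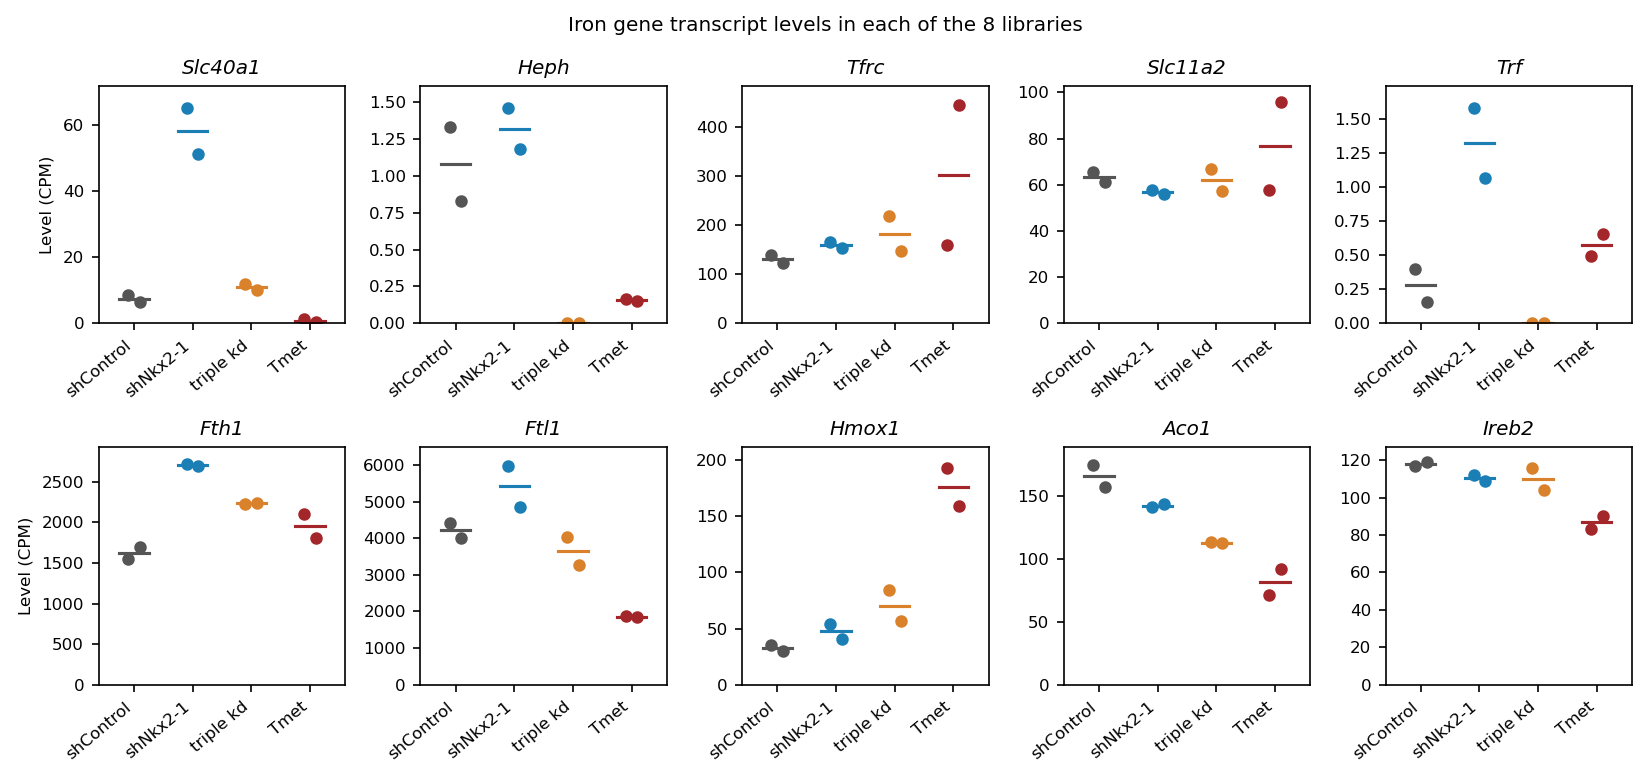
Level of each iron gene in CPM (linear axes from 0, a separate scale for each gene) in the 2 libraries of shControl, shNkx2-1, the triple knockdown (triple kd) and Tmet; dots are libraries and bars their mean. Slc40a1 stands at 65.1 and 51.2 CPM in shNkx2-1, Heph and Trf are at 0 in the triple knockdown, and Hmox1 is highest and Ftl1, Aco1 and Ireb2 are lowest in Tmet.

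Tfrc, the transferrin receptor, was at 139 and 122 CPM in shControl, 166 and 153 with the Nkx2-1 shRNA alone, 218 and 148 in triple knockdown cells, and 160 and 445 in Tmet. The second Tmet library stands far above the other 7, while the first lies within the range of shNkx2-1. Tfrc passed the test in Tmet against shControl (log2 difference 1.21 ± 0.41, adjusted p = 0.0339, edgeR), but in 6 of 14 alternatives only. Without the second Tmet library the log2 difference fell to 0.29 and the call was lost, as it was with limma-voom, with only the 4 libraries compared, with the replicate number as a block, and without either library of shControl or shNkx2-1 (highest adjusted p = 0.221). The second Tmet library also held more of the fibroblast markers Col1a1 (346 against 72.3 CPM in the first) and Col1a2 (453 against 164 CPM), but less of Pdgfra (1.31 against 1.91 CPM), Dcn (0.302 against 1.64 CPM) and Thy1 (0.0504 against 0.109 CPM). The part of these transcripts in the Tfrc value was not tested. Of the 6 fibroblast markers Lum was at 0 in all libraries, and the summed level ran from 4.67 to 8.45 CPM in shControl and shNkx2-1, 19.6 to 20.1 in the triple knockdown and 240 to 800 in Tmet. The other 4 tested Tfrc differences did not pass: 0.49 ± 0.41 on the log2 scale for the triple knockdown against shControl (adjusted p = 0.422), 0.72 ± 0.41 for Tmet against the triple knockdown (adjusted p = 0.175) and 0.92 ± 0.41 for Tmet against shNkx2-1 (adjusted p = 0.084). The triple knockdown against shNkx2-1 differed by 0.20 ± 0.40 (adjusted p = 0.77).

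Slc11a2 (DMT1) showed the same 2 libraries apart on a smaller scale. It was at 65.6 and 61 CPM in shControl, 57.7 and 55.8 with the Nkx2-1 shRNA alone, 66.7 and 57.2 in triple knockdown cells, and 57.8 and 95.9 in Tmet. The triple knockdown overlapped shControl, and the first Tmet library lay inside the range of the Tnonmet libraries. None of the 5 contrasts tested for it passed, with log2 differences from -0.03 ± 0.22 (triple knockdown against shControl, adjusted p = 0.94) to 0.44 ± 0.22 (Tmet against shNkx2-1, adjusted p = 0.119). With the first Tmet library left out, Slc11a2 passed against each of the other groups (log2 0.60 against shControl, adjusted p = 0.00199), and with the second left out the difference to shControl was -0.13.

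Trf, which makes transferrin, is chiefly a liver gene and was near the limit of detection here. It had 6 and 3 counts (0.4 and 0.155 CPM) in shControl, 26 and 19 (1.58 and 1.07 CPM) with the Nkx2-1 shRNA alone, 0 and 0 in triple knockdown cells, and 9 and 13 (0.492 and 0.655 CPM) in Tmet. It passed the filter on low counts through shNkx2-1 and 1 Tmet library, so its tests with these groups are not independent of that filter. In the description of shNkx2-1 against shControl its mean was 4.78 times higher, with an exact 95% counting interval of 2.43 to 11.7 around a pooled ratio of 5.02. The triple knockdown was at least 7.1-fold lower than shNkx2-1 (adjusted p = 0.00436), and Tmet at least 3.07-fold higher than the triple knockdown (adjusted p = 0.00562), and both calls held in all alternatives that gave a value. Against shControl the triple knockdown was at least 1.49-fold lower (adjusted p = 0.0384), a call lost with the replicate number as a block and without any 1 of the 6 Tnonmet libraries (highest adjusted p = 0.167). Tmet differed from shControl by 1.09 ± 0.62 (adjusted p = 0.171) and from shNkx2-1 by -1.19 ± 0.50 (adjusted p = 0.0797) on the log2 scale. Alb, the defining hepatocyte gene, was at or under 0.0641 CPM in every library, and the 7 hepatocyte markers summed to 0.109 to 0.912 CPM, highest in the 2 shNkx2-1 libraries.

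The ferritin chains had different profiles. Fth1, the heavy chain that oxidises iron as it enters the shell, was at 1545 and 1695 CPM in shControl, 2724 and 2694 with the Nkx2-1 shRNA alone, 2228 and 2237 in triple knockdown cells, and 2103 and 1812 in Tmet. Both knockdown groups and Tmet lay above shControl, with the narrowest duplicates in shNkx2-1 and the triple knockdown. Fth1 rose in the triple knockdown against shControl (log2 0.46 ± 0.11, adjusted p = 0.0202, edgeR), a call lost without any 1 of those 4 libraries (highest adjusted p = 0.156), and fell by 0.47 on the log2 scale in Tmet against shNkx2-1 (SE 0.11, adjusted p = 0.00771), a call lost with only those 4 libraries in the fit (adjusted p = 0.052). As a description, shNkx2-1 differed from shControl by 0.74 ± 0.11. Fth1 in Tmet differed from shControl by 0.27 ± 0.11 (adjusted p = 0.0668) and from the triple knockdown by -0.19 ± 0.11 (adjusted p = 0.194), and the triple knockdown from shNkx2-1 by -0.28 ± 0.11 (adjusted p = 0.121).

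Ftl1, the light chain that helps the iron core to form, was at 4424 and 4015 CPM in shControl, 5960 and 4862 with the Nkx2-1 shRNA alone, 4037 and 3260 in triple knockdown cells, and 1873 and 1839 in Tmet. Tmet lay below all other libraries, and the triple knockdown overlapped shControl. Ftl1 fell in Tmet against shControl (log2 -1.18 ± 0.15, adjusted p = 0.000327), against shNkx2-1 (-1.54 ± 0.15, adjusted p = 8.49e-05) and against the triple knockdown (-0.97 ± 0.15, adjusted p = 0.00122), and these edgeR calls held in 14 of 14 alternatives each. It also fell in the triple knockdown against shNkx2-1 (-0.57 ± 0.15, adjusted p = 0.0295), a call lost without the first shNkx2-1 library and without each library of shControl or the triple knockdown (highest adjusted p = 0.207). The triple knockdown differed from shControl by -0.21 ± 0.15 (adjusted p = 0.343). Ferritin genes are known to have pseudogene copies in the mouse genome, and how reads shared with such copies were assigned was not analysed here.

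The ratio of Ftl1 to Fth1 CPM within a library, which is read only between libraries because it is not per length, was 2.86 and 2.37 in shControl, 2.19 and 1.8 with the Nkx2-1 shRNA alone, 1.81 and 1.46 in triple knockdown cells, and 0.89 and 1.01 in Tmet. The order of group means ran from shControl down to Tmet, with shNkx2-1 and the triple knockdown overlapping and the lowest values in Tmet apart from the rest. The ratio was not tested. Ncoa4, the receptor that carries ferritin to lysosomes for iron release, was at 365 and 319 CPM in shControl, 375 and 406 with the Nkx2-1 shRNA alone, 193 and 198 in triple knockdown cells, and 112 and 113 in Tmet. It fell in each of the 5 contrasts tested: the log2 difference was -0.81 ± 0.10 in the triple knockdown against shControl (adjusted p = 0.00142), -1.0 ± 0.10 against shNkx2-1 (adjusted p = 0.000681), and in Tmet -1.60 ± 0.11 against shControl (adjusted p = 1.18e-05), -0.79 ± 0.10 against the triple knockdown (adjusted p = 0.000626) and -1.79 ± 0.11 against shNkx2-1 (adjusted p = 7.05e-06). No alternative ended any of these edgeR calls.

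**Figure D2:**
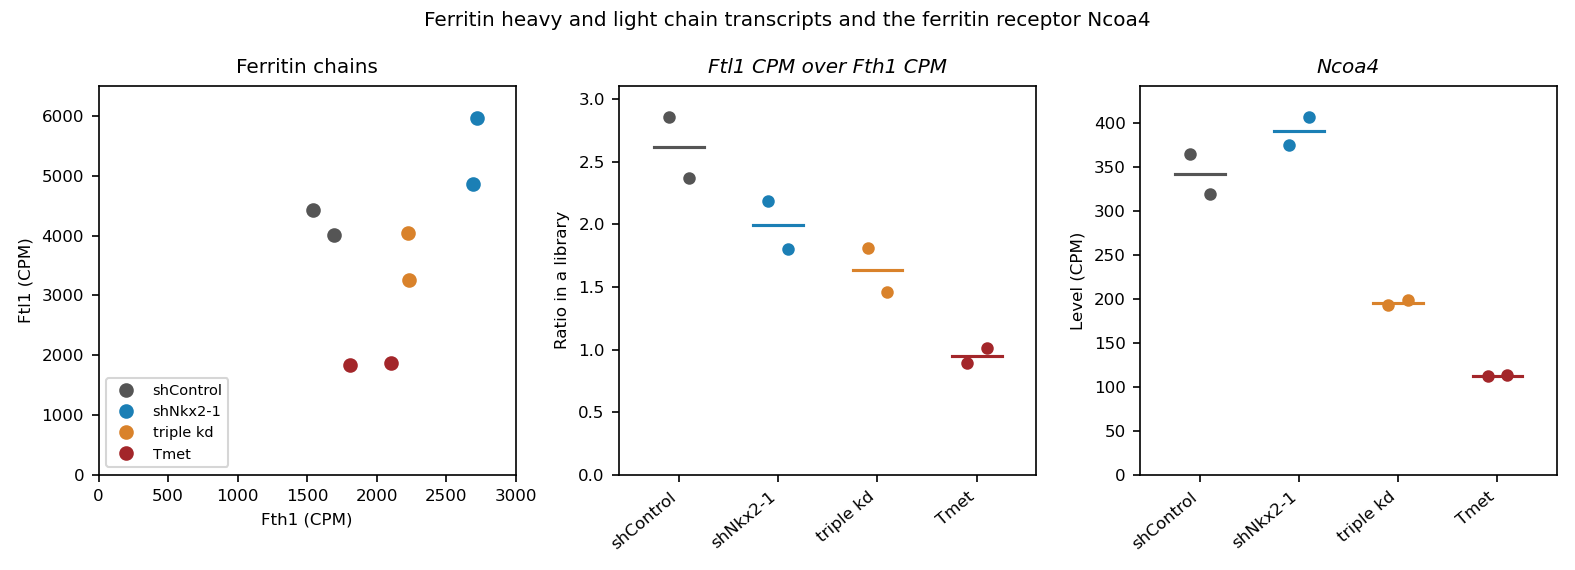
Left, Ftl1 against Fth1 in CPM, with a dot per library; middle, Ftl1 CPM divided by Fth1 CPM in each library; right, Ncoa4 in CPM; dots are libraries, bars means of 2, and all axes start at 0. Tmet has the lowest Ftl1 (1873 and 1839 CPM), ratio (0.89 and 1.01) and Ncoa4 (112 and 113 CPM), and shNkx2-1 the highest Fth1.

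Hmox1 makes heme oxygenase 1, the inducible enzyme that opens heme and frees its iron. It was at 35.5 and 30.3 CPM in shControl, 54 and 40.9 with the Nkx2-1 shRNA alone, 84.5 and 56.3 in triple knockdown cells, and 193 and 159 in Tmet. The groups did not overlap and stood in that ascending order, with Tmet well above the rest. Hmox1 was the only member called higher in Tmet against all 3 other groups: by 2.42 ± 0.23 on the log2 scale against shControl (5.35 times, adjusted p = 7.88e-05), 1.89 ± 0.23 against shNkx2-1 (3.71 times, adjusted p = 0.000248) and 1.32 ± 0.22 against the triple knockdown (2.5 times, adjusted p = 0.00202), and each edgeR call held in 14 of 14 alternatives. It rose in the triple knockdown against shControl (1.10 ± 0.23, 2.14 times, adjusted p = 0.0104), a call lost without either shControl library or the first triple knockdown library (highest adjusted p = 0.0928). Against shNkx2-1 the triple knockdown differed by 0.57 ± 0.22 (adjusted p = 0.114). It was called higher there with the replicate number as a block (0.56, adjusted p = 0.0272) and without either or both Tmet libraries (highest adjusted p = 0.0493). Macrophages, which recycle heme, are a known source of this transcript. Of 10 macrophage markers, Emr1, C1qa and C1qb were at 0 in all libraries and Ptprc and Csf1r at or under 0.806 CPM. The summed level was 40.9 to 66.2 CPM in shControl and shNkx2-1, 172 to 214 in the triple knockdown and 11.8 to 12.7 in Tmet, nearly all of it Mrc1 except in Tmet. Cd68, another of them, had a mean of 1.44 CPM in shControl, 1.23 with the Nkx2-1 shRNA alone, 3.43 in triple knockdown cells and 3.03 in Tmet. It was called higher than shControl in the triple knockdown (adjusted p = 0.0384) and in Tmet (adjusted p = 0.0327). Ptprc and Csf1r had no counts in shControl and shNkx2-1. In the Tmet libraries Ptprc was at 0.164 and 0.252 CPM, and Csf1r at 0.0547 and 0.806 CPM, so mainly in the second. Lyz2 and Mrc1 went the other way, with means of 0.152 and 42.5 CPM in shControl and 0 and 8.22 CPM in Tmet. The part of these transcripts in the Hmox1 values was not tested.

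The regulators were lowest in Tmet. Aco1 makes iron regulatory protein 1, which becomes a cytosolic aconitase when it carries an iron-sulfur cluster. It was at 174 and 157 CPM in shControl, 141 and 143 with the Nkx2-1 shRNA alone, 113 and 112 in triple knockdown cells, and 71 and 91.9 in Tmet, with no overlap between groups. Aco1 fell in the triple knockdown against shControl (log2 -0.55 ± 0.14, adjusted p = 0.0212) and in Tmet against shControl (-1.02 ± 0.14, adjusted p = 0.000451), shNkx2-1 (-0.80 ± 0.14, adjusted p = 0.00148) and the triple knockdown (-0.47 ± 0.14, adjusted p = 0.0223). The calls of Tmet against shControl and shNkx2-1 held in 14 of 14 alternatives. The call of the triple knockdown against shControl was lost without any 1 of those 4 libraries (highest adjusted p = 0.141), and that of Tmet against the triple knockdown without either triple knockdown library or with only the 4 libraries compared (highest adjusted p = 0.0918). The triple knockdown differed from shNkx2-1 by -0.33 ± 0.14 (adjusted p = 0.125).

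Ireb2 makes iron regulatory protein 2, which is degraded when iron is plentiful. It was at 117 and 119 CPM in shControl, 112 and 109 with the Nkx2-1 shRNA alone, 116 and 104 in triple knockdown cells, and 83.1 and 90.4 in Tmet. The 3 Tnonmet groups lay close together, the triple knockdown spanning shNkx2-1, and Tmet lay below all of them. In Tmet, Ireb2 fell against shControl (log2 -0.44 ± 0.11, adjusted p = 0.00797), against shNkx2-1 (-0.35 ± 0.11, adjusted p = 0.022) and against the triple knockdown (-0.34 ± 0.11, adjusted p = 0.0283). The first held in 14 of 14 alternatives. The second was lost without either shNkx2-1 library or with only the 4 libraries compared (highest adjusted p = 0.0882), and the third likewise for the triple knockdown, and without either shControl library (highest adjusted p = 0.18). Among Tnonmet groups, the triple knockdown differed by -0.10 ± 0.11 from shControl (adjusted p = 0.546) and by -0.005 ± 0.106 from shNkx2-1 (adjusted p = 0.985).

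The 5 tested contrasts share groups, so their values stand side by side and are not independent. In the triple knockdown against shControl, 2 of 9 members were called higher (Hmox1 and Fth1), where 12% of all tested genes were, and 3 lower (Aco1, Heph and Trf), where 12.4% were. The members' median log2 difference was -0.10 beside 0.004 for all genes. In the triple knockdown against shNkx2-1, none of 9 was called higher, against 9.27% of all genes, and 3 were called lower (Ftl1, Trf and Heph), against 11.1%, with a median of -0.28 beside -0.003. Before adjustment, edgeR's p for Hmox1, which was higher there, was 0.0338, and DESeq2 likewise called 3 members in that contrast. There were 4 calls with the replicate number as a block, Hmox1 as higher among them, and 6 without both Tmet libraries. Over all genes, 1076 were called higher and 1313 lower of 13318 with the block, and 2451 and 2507 of 12727 without both Tmet libraries. The main fit called 1235 and 1476 of 13318. In Tmet against shControl, 2 of 9 were called higher (Tfrc and Hmox1) and 4 lower (Ftl1, Ireb2, Aco1 and Heph), where 29.2% and 28.1% of all genes were, and the medians were 0.27 and 0.02. In Tmet against shNkx2-1, 1 of 9 was called higher (Hmox1) and 5 lower (Fth1, Ftl1, Ireb2, Aco1 and Heph), where 29.3% and 28.8% of all genes were, and the medians were -0.47 and 0.005. In Tmet against the triple knockdown, with Slc40a1 included, 3 of 10 were called higher (Hmox1, Trf and Heph) and 4 lower (Slc40a1, Ftl1, Ireb2 and Aco1), beside 24% and 24.1% of all genes. Here the members' median was 0.06 from fitted values and -0.10 with Trf at its bound and Heph at no change, beside 0.02 for all genes. With only 9 or 10 genes, these counts are a description and not a result about the set as a whole. Heph and Trf enter them with the limit from the filter on low counts given above.

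**Figure D3:**
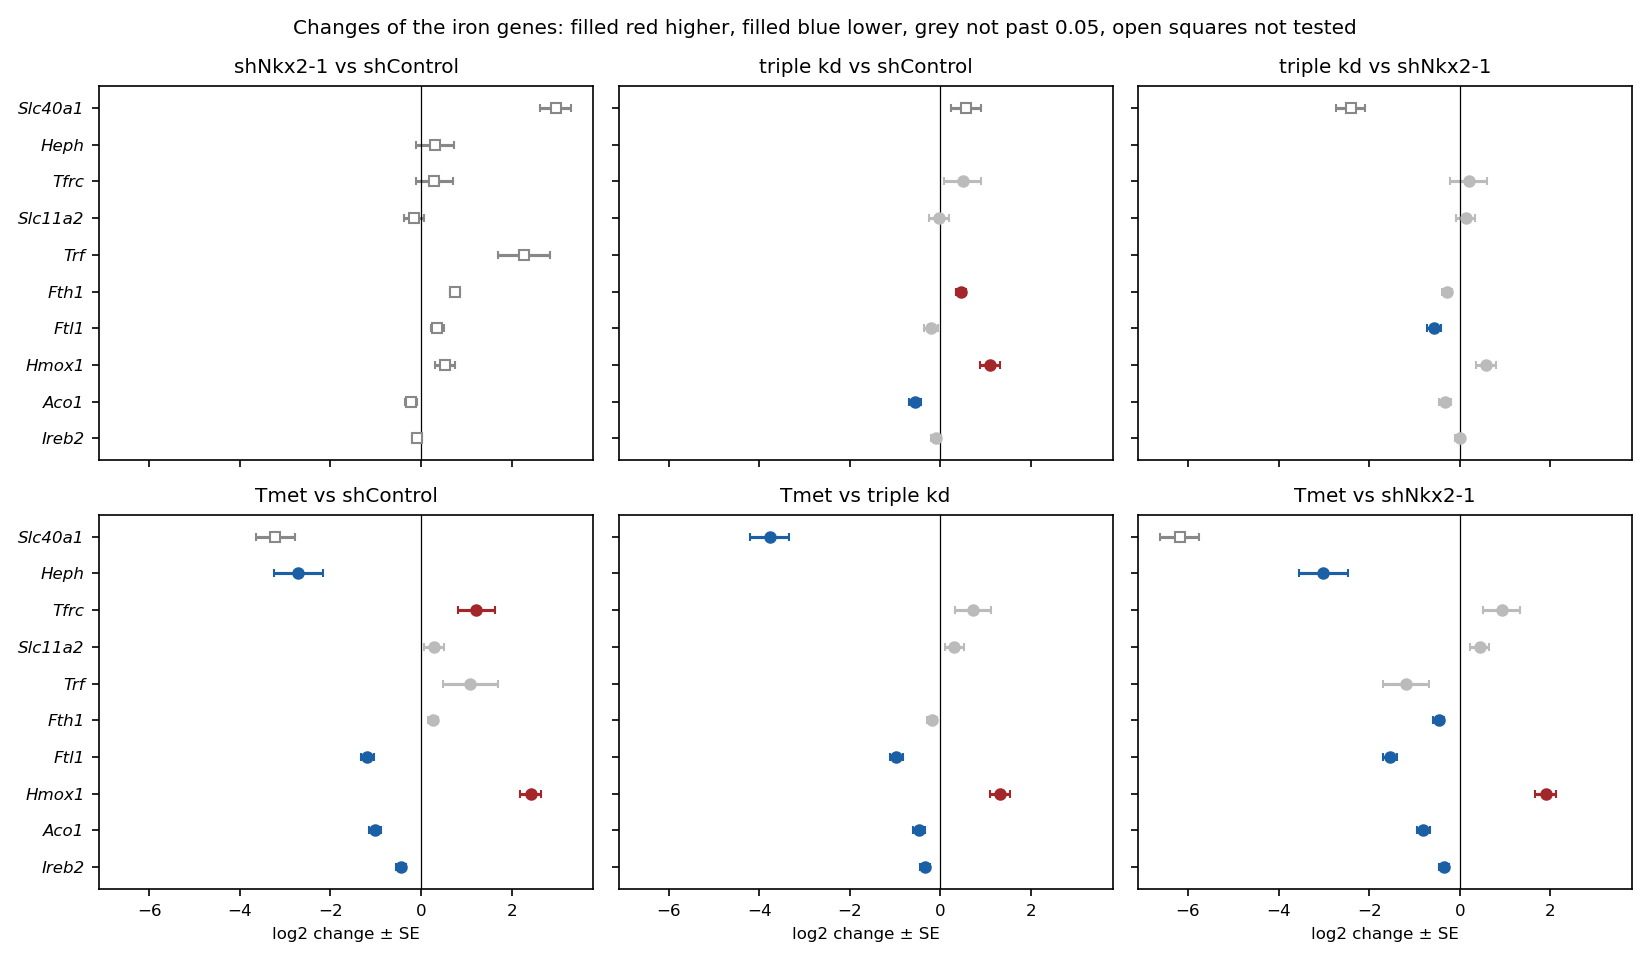
Log2 differences ± SE of the iron genes in the 6 contrasts (columns of dots on a common axis), from the fit across all genes; filled red and blue dots passed the adjusted threshold as higher and lower, grey dots did not, and open squares were not tested. Heph and Trf are not drawn in contrasts with the triple knockdown, where both are at 0 counts. Hmox1 lies to the right and Ftl1, Aco1 and Ireb2 to the left in all 3 Tmet contrasts.

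Genes with a profile like that of Slc40a1 were taken from 1636 genes with at least a 4-fold range between group means, by the Pearson correlation of log2 CPM over the 8 libraries. The 5 most alike were Pklr (r = 0.976), Ces2g (0.975), Pcdhb5 (0.972), Pak6 (0.971) and Dscaml1 (0.967). Ces2g, a carboxylesterase, was at 5.17, 32.9, 6.98 and 0.317 CPM in the means of shControl, shNkx2-1, the triple knockdown and Tmet. Pklr, the liver and red cell pyruvate kinase, was at 2.29, 9.51, 1.55 and 0.0799 CPM, so its triple knockdown mean lay below shControl, unlike that of Slc40a1. The libraries fall into 4 groups and are not 8 independent points, so these correlations only rank genes.

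Other iron and heme genes were described from 9 lists of 110 genes, of which 95 were tested. Over all of them 21 were called higher and 11 lower in the triple knockdown against shControl, where 12% and 12.4% of all tested genes were. Against shNkx2-1 the counts were 15 and 15, beside 9.27% and 11.1%. In Tmet 20 and 34 were called against shControl, beside 29.2% and 28.1% of all genes. There were 18 and 36 against the triple knockdown, beside 24% and 24.1%, and 19 and 36 against shNkx2-1, beside 29.3% and 28.8%. The same shares of all genes apply to the counts of each list, which hold 5 to 22 tested genes and are descriptions. Their median log2 differences in that order were 0.11, 0.03, -0.11, -0.26 and -0.14. The genes named next are the called ones that ranked first by p in their list, and unless a loss is given, no alternative ended the call.

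Among 9 tested genes of other iron uptake and ferrireduction, the triple knockdown had 2 higher and 2 lower against shControl and Tmet 3 and 3, with list medians of 0.16 and 0.25. Slc39a8, a zinc transporter that also carries iron, was at 10.2 and 7.69 CPM in shControl, 6.93 and 4.9 with the Nkx2-1 shRNA alone, 2.71 and 1.99 in triple knockdown cells, and 1.53 and 1.26 in Tmet. It fell in both, with log2 differences of -1.92 ± 0.30 in the triple knockdown (adjusted p = 0.00345) and -2.67 ± 0.32 in Tmet (adjusted p = 0.000243), both against shControl. Its relative Slc39a14 was at 51.6 and 54.1, 61.2 and 51.1, 80.6 and 77.8, and 78 and 97.3 CPM in the same order of groups, and rose in the triple knockdown (0.58 ± 0.15, adjusted p = 0.0231), a call lost without any 1 of those 4 libraries. Steap1, of the metalloreductase family, rose in Tmet against shControl from a mean of 18.1 to 42.4 CPM (1.22 ± 0.18, adjusted p = 0.000743), and Mcoln1, a lysosomal channel that passes iron, fell from 68.6 to 39.2 CPM (-0.81 ± 0.16, adjusted p = 0.00329).

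Of 9 tested genes of heme transport and breakdown, 2 were called higher and 2 lower in Tmet against shControl, beside 29.2% and 28.1% of all genes, with a median of 0.08. Slc48a1, which moves heme out of lysosomes, was at 122 and 124 CPM in shControl, 134 and 108 with the Nkx2-1 shRNA alone, 210 and 195 in triple knockdown cells, and 319 and 282 in Tmet, the same order of groups as Hmox1 except that shControl and shNkx2-1 overlapped. It rose by 1.29 ± 0.13 on the log2 scale in Tmet against shControl (adjusted p = 0.000107) and by 0.72 ± 0.13 in the triple knockdown (adjusted p = 0.00599), the latter lost without either shControl library or the first triple knockdown library. Pgrmc1, a heme-binding membrane protein, fell from a mean of 248 CPM in shControl to 97.1 in the triple knockdown (-1.35 ± 0.12, adjusted p = 0.000245) and 113 in Tmet (-1.13 ± 0.12, adjusted p = 0.000123). Abcg2, an exporter of heme and many drugs, was at 11.3 and 8.31 CPM in shControl, 49.5 and 35.4 with the Nkx2-1 shRNA alone, 13.1 and 10.2 in triple knockdown cells, and 3.94 and 7.41 in Tmet. Like Slc40a1 it stood highest in shNkx2-1, and it fell in the triple knockdown against shNkx2-1 (log2 -1.86 ± 0.32, adjusted p = 0.0055), lost without the second triple knockdown library (adjusted p = 0.0593), and in Tmet against shNkx2-1 (-2.90 ± 0.33, adjusted p = 0.000197).

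Of 8 tested genes of heme synthesis, 1 was called higher and 1 lower in the triple knockdown against shControl, and none higher and 1 lower in Tmet, with medians of -0.24 and -0.19. Fech, which puts iron into heme, fell from a mean of 86.7 to 54.2 CPM in the triple knockdown (-0.68 ± 0.11, adjusted p = 0.00414), and Alas1, the first enzyme of the pathway, from 41.4 to 27.1 CPM in Tmet (-0.61 ± 0.16, adjusted p = 0.0132), a call lost without the first shControl library (adjusted p = 0.0949). Of 22 tested genes of mitochondrial iron and iron-sulfur clusters, 4 were called higher and 1 lower in the triple knockdown, and Tmet had 5 and 6. The same shares of all genes stand beside these counts, and the medians were 0.05 and -0.10. Slc25a37, the mitochondrial iron importer mitoferrin 1, was at 62.5 and 63.5 CPM in shControl, 55.8 and 47.2 with the Nkx2-1 shRNA alone, 98.6 and 91 in triple knockdown cells, and 155 and 124 in Tmet, and rose in Tmet against shControl (1.15 ± 0.14, adjusted p = 0.000318). Hspa9, the mitochondrial chaperone that hands on clusters among other tasks, rose from a mean of 567 to 1962 CPM in the same comparison (1.79 ± 0.12, adjusted p = 1.43e-05). Iba57, listed as A230051G13Rik, fell there from a mean of 17 to 7.74 CPM (-1.13 ± 0.20, adjusted p = 0.00167).

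Hepcidin, the liver hormone that removes ferroportin from the membrane, was not detectable: Hamp had a mean of 0.0304 CPM in shNkx2-1 and was at 0 in the other groups, and Hamp2 was at 0 in all. Of its regulators and related genes, 6 were tested, with 3 called higher and 1 lower in the triple knockdown against shControl and 2 and 2 in Tmet, and medians of 0.40 and 0.20. Fam132b, which makes erythroferrone, a hormone of red cell precursors that lowers hepcidin, was at 1.33 and 1.6 CPM in shControl, 2.98 and 2.03 with the Nkx2-1 shRNA alone, 7.54 and 6.47 in triple knockdown cells, and 23.2 and 20.9 in Tmet. The groups did not overlap, and it rose by 2.24 ± 0.26 on the log2 scale in the triple knockdown (adjusted p = 0.000856) and by 3.90 ± 0.26 in Tmet (adjusted p = 1.15e-05) against shControl. The 8 erythroid markers summed to 1.3 to 3.01 CPM in every library, and Hbb-b1 and Hba-a2 were at 0 throughout. Among them the globin gene Hba-a1 moved with Fam132b: its mean was 0.111 CPM in shControl, 0.145 with the Nkx2-1 shRNA alone, 0.652 in triple knockdown cells and 1.24 in Tmet. It was called higher than shControl in the last 2 (adjusted p = 0.0221 and 0.00134), the groups through which it passed the filter on low counts. Hbb-b2, another globin gene, was at 0 in the Tnonmet libraries and at 0.219 and 0.252 CPM in Tmet. The part of erythroid transcripts in the Fam132b values was not tested. Bmp2, a ligand that can induce hepcidin, fell from a mean of 4.27 to 0.524 CPM in the triple knockdown (-3.00 ± 0.51, adjusted p = 0.00474). Bmp6, another, had a mean of 0.0592 CPM in shControl, a level under the floor, and 2.61 CPM in Tmet. It passed the filter on low counts through Tmet only, so its edgeR call as higher there (adjusted p = 0.000119) is not independent of that filter.

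Ceruloplasmin, the soluble relative of hephaestin and made by Cp, was at 18.5 and 14.2 CPM in shControl, 5.53 and 6.59 with the Nkx2-1 shRNA alone, 2.95 and 1.47 in triple knockdown cells, and 29.9 and 24.5 in Tmet. It fell in the triple knockdown against shControl (log2 -2.87 ± 0.32, adjusted p = 0.000708) and rose in Tmet against the triple knockdown (3.61 ± 0.32, adjusted p = 7.77e-05). Of the 5 tested genes of this list, none was called higher and 1 lower in the triple knockdown against shControl, and 2 and 2 in Tmet, with medians of -0.39 and 0.05. Atp7b, a copper pump that loads ceruloplasmin, was at 21.1 and 24.3 CPM in shControl. In Tmet it was at 0.765 and 0.0504 CPM, the last under the floor, and it fell in that comparison (adjusted p = 0.00018).

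Hmox1, both ferritin chains and Slc40a1 are among the genes that NRF2 can induce and its repressor BACH1 can hold down, and hypoxia-inducible factors act on Tfrc, Slc11a2 and Slc40a1 in some tissues. Of 15 other NRF2 targets, 5 were called higher and 2 lower in the triple knockdown against shControl (beside 12% and 12.4% of all genes, median 0.04), and 3 higher and 8 lower in Tmet (beside 29.2% and 28.1% of all genes, median -0.35). Osgin1, an oxidative stress gene, was at 34.9 and 37.6 CPM in shControl, 50 and 39.8 with the Nkx2-1 shRNA alone, 136 and 154 in triple knockdown cells, and 16.1 and 12.1 in Tmet, rising by 2.00 ± 0.18 on the log2 scale in the triple knockdown against shControl (adjusted p = 0.000252) and falling from there to Tmet (-3.36 ± 0.19, adjusted p = 6.3e-06). In Tmet against shControl, Me1, malic enzyme, fell from a mean of 738 to 125 CPM (-2.56 ± 0.12, adjusted p = 1.7e-06) and Prdx1, a peroxiredoxin, from 1409 to 546 CPM (-1.37 ± 0.10, adjusted p = 2.36e-05). G6pdx, of the pentose phosphate pathway, rose from 90.6 to 278 CPM (1.62 ± 0.15, adjusted p = 7.49e-05).

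Of 13 regulators of these responses, 3 were called higher and 1 lower in the triple knockdown against shControl (beside 12% and 12.4% of all genes, median 0.14), and 1 higher and 8 lower in Tmet (beside 29.2% and 28.1% of all genes, median -0.57). Epas1, which makes the hypoxia factor HIF-2 alpha, was at 61.7 and 64.3 CPM in shControl, 37.2 and 45.9 with the Nkx2-1 shRNA alone, 9.59 and 13.8 in triple knockdown cells, and 6.18 and 2.47 in Tmet. It fell in the triple knockdown (log2 -2.43 ± 0.35, adjusted p = 0.00216) and in Tmet (-3.87 ± 0.38, adjusted p = 8.67e-05), both against shControl. Hif1a, its relative HIF-1 alpha, was at 167 and 139, 187 and 149, 331 and 340, and 203 and 169 CPM in the same order of groups, and rose in the triple knockdown against shControl (1.14 ± 0.15, adjusted p = 0.00171). Egln1, an oxygen-sensing and iron-dependent hydroxylase that marks these factors for decay, rose in the same comparison from a mean of 84.8 to 168 CPM (0.99 ± 0.12, adjusted p = 0.00111). In Tmet against shControl, Arnt, a partner of the hypoxia factors, fell from a mean of 134 to 78.6 CPM (-0.77 ± 0.10, adjusted p = 0.000432). Mafg, a partner of NRF2 and BACH1, was the 1 regulator called higher there, from 34.2 to 60.3 CPM (0.82 ± 0.12, adjusted p = 0.000842). Among the 8 called lower, but not first by p, were Nfe2l2, which makes NRF2 (207 to 139 CPM), and Bach1 (45.4 to 27.2 CPM). How the calls of these 2 fared in the alternatives is not given.

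**Figure D4:**
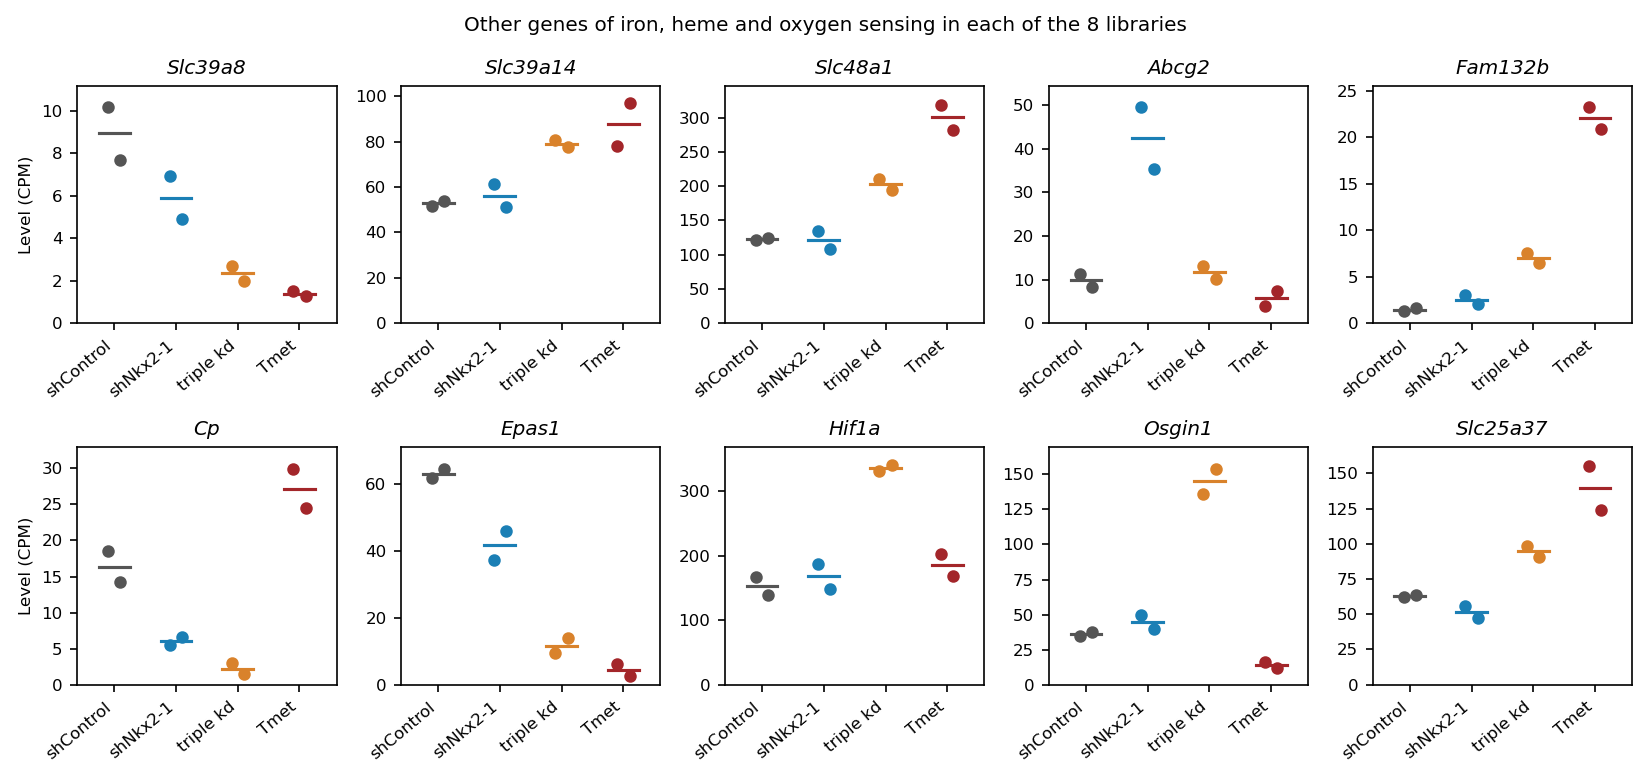
Level in CPM (linear axes from 0, a separate scale for each gene) of 10 other genes of iron transport, heme and oxygen sensing in the 2 libraries of each group; dots are libraries and bars their mean. Epas1 and Slc39a8 step down and Fam132b steps up from shControl to Tmet, Abcg2 is highest in shNkx2-1, Osgin1 and Hif1a are highest in the triple knockdown, and Cp is lowest there.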

How the data were processed

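The authors deposited estimated counts (expected counts) for 23224 genes in 8 libraries, from polyadenylated RNA read as single ends of 45 nt, per the labels' protocols. Bowtie 1.0.1, RSEM 1.2.12 and the build mm9 are listed, with no role, in the submitters' processing notes. Sources used here do not state the annotation or strand. Estimated counts were rounded, filtered with edgeR's filterByExpr (minimum count 10, minimum total 15), which left 13318 genes, all 10 iron genes among them, and scaled by TMM (factors 0.943 to 1.035). All 8 libraries entered 1 edgeR quasi-likelihood fit without covariates (R 4.3.3, edgeR 4.0.16), with two-sided tests, Benjamini-Hochberg adjustment and a threshold of 0.05. This fit takes 1 spread per gene for all groups, although Tmet duplicates differed more from each other than the others did. Its errors may thus be too small in Tmet contrasts and too large among Tnonmet groups. Alternatives used DESeq2 1.42.0, limma-voom 3.58.1, DESeq2 size factors, no filter, the 4 libraries compared, a replicate block, each library left out and, added after the data were seen, both Tmet libraries left out. The fit was tested on simulated data. CPM carry TMM factors, and mean ± SE refers to fitted log2 differences. From each list, up to 3 called genes with the smallest p per contrast could be named. The members and lists were chosen with earlier results of these data known. Of the 159 list and marker entries, 152 matched by symbol, 2 by an alias and 4 by a RefSeq synonym (GRCm38.p6), and Ftl2 was not matched. Part of the genotype that all groups share, and 1 marker gene, are not reported here.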

Additional observations from a re-analysis of the deposited data

How the results depend on the processing

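Counts of members called kept within 1.5 times their value in Tmet against shControl and against shNkx2-1 in every alternative. In the triple knockdown against shControl 5 were called, and 1 to 6 with 1 library left out. In the triple knockdown against shNkx2-1 3 were called, 2 to 6 with 1 library left out, 5 with only the 4 libraries compared and 6 when both Tmet libraries were dropped. In Tmet against the triple knockdown 7 were called, 3 with only the 4 libraries compared and 4 to 9 with 1 library left out; where a group keeps a single library, that library is assumed to vary like the other groups. The number of all genes called moved too. In the triple knockdown against shNkx2-1, 1235 were higher and 1476 lower of 13318 in the main fit. There were 2451 and 2507 of 12727 without both Tmet libraries, and 2182 and 2336 of 12541 with only the 4 libraries compared. In Tmet against the triple knockdown they were 3191 and 3213 of 13318, and 2192 and 2221 of 12819 with only 4 libraries. Such swings are thus not particular to the iron genes. The description of Slc40a1 in shNkx2-1 against shControl ranged from 2.75 to 3.20 on the log2 scale. No called difference changed sign. Differences that were not called did so with 1 library left out, ranging from -0.146 to 0.075 (triple knockdown against shControl), -0.13 to 0.60 (Tmet against shControl) and -0.10 to 0.63 (Tmet against the triple knockdown) for Slc11a2; from -0.10 to 0.45 (triple knockdown against shNkx2-1), -0.20 to 1.28 (Tmet against the triple knockdown) and -0.002 to 1.48 (Tmet against shNkx2-1) for Tfrc; and from -0.089 to 0.074 for Ireb2 in the triple knockdown against shNkx2-1. The cause was not tested. Duplicates share only a number in the labels: deviations of same-numbered libraries correlated at 0.231 to 0.326 among Tnonmet groups and at -0.239 to -0.056 with Tmet. With the replicate number as a block, 4 members were called in the triple knockdown against shControl, 4 against shNkx2-1, and in Tmet 5 against shControl, 7 against the triple knockdown and 6 against shNkx2-1. Over all 13318 genes, the block gave 1454 higher and 1497 lower in the triple knockdown against shControl, and 1076 and 1313 against shNkx2-1. In Tmet they were 3716 and 3635 against shControl, 2993 and 3069 against the triple knockdown, and 3756 and 3732 against shNkx2-1. In each of these contrasts, fewer of all genes were called with the block than in the main fit. Depth limits Heph and Trf, at 26 counts or fewer in every library.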
